A study of Homo sapiens with 24 samples.

Results

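The 46 genes described here encode the cyclin-CDK1 switch, mitotic kinases, the spindle checkpoint, kinetochores, kinesin motors, spindle assembly factors, the chromosomal passenger complex and the cytokinesis machinery, with 3 genes used as marks of dividing cells. They were chosen as a list by function, with earlier results of these data known. Each was represented by its probe set of highest mean signal over all 24 arrays. All 46 were in the table of 19775 genes and all 46 passed the filter on dim genes, which left 14141 genes for testing. RNA was measured on Affymetrix arrays in 3 established human breast cancer cell lines, with 3 arrays in each of 8 groups. In the shRNA experiment, SUM149PT cells were infected with lentivirus carrying MCT1 shRNA or scramble shRNA and kept in puromycin at 2 µg/ml for 5 days. MCT1 is a plasma membrane carrier of lactate and pyruvate. In the inhibitor experiment, HS578T, SUM149PT and SUM159PT cells received AZD3965, an inhibitor of MCT1, or its solvent DMSO for 24 hours. Per the labels, all groups were grown with 10% serum, HS578T in DMEM, and both SUM lines in F12 with insulin, hydrocortisone, EGF and gentamicin, so line and medium cannot be told apart where HS578T is compared with either SUM line.

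Entry into mitosis is set by CDK1 bound to cyclins A and B, and exit by the anaphase-promoting complex, a ubiquitin ligase that destroys cyclin B and securin once the spindle checkpoint is satisfied. Between these steps the kinetochores attach chromosomes to microtubules, kinesins and assembly factors shape the spindle, and a midzone and contractile ring divide the cell. RNAs of these genes are low in G0 and G1 cells and high in G2 and M. In human cells many of their promoters hold a CHR element, bound by the MuvB complex, and CCAAT boxes, bound by NF-Y. MuvB represses them as part of the DREAM complex in resting cells and activates them together with B-MYB and FOXM1 in cycling cells.

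The deposited values are linear array signals that had been scaled before deposition to a trimmed mean of 500.1 on every array, and arrays of a group correlated at 0.981 to 0.992 across probe sets. One scramble shRNA array, number 3, stood apart in RNA quality: signal at the 3' end of actin was 53.8 times that at the 5' end, where the other 23 arrays had 1.2 to 2.14 times, and for GAPDH the figure was 2.35, where the others had 0.798 to 0.948. For the shRNA comparison, counts of mitotic genes called, of those without overlap and of their other probe sets are given with and without this array. So are values of the genes that it moved most. Counts by role use all arrays, and the calls lost or gained without this array are named. Counts of other gene lists, calls of markers and the split of promoter matches by call are given only with it. No label states that arrays of a group are from different cultures; the p-values therefore reflect the spread among arrays, possibly technical, and nothing wider. The gene targeted by the shRNA is not reported, so the knockdown was not checked here.

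With MCT1 shRNA, RNA of the mitotic genes was lower than with scramble shRNA across every role. Of the 46 genes 41 fell and 0 rose at an adjusted p under 0.05 (limma, Benjamini-Hochberg over all genes tested), where 7.64% of all genes tested were called lower and 7.22% higher. Among the 6449 genes at least as bright as the dimmest mitotic gene, 12.1% were called lower. The median difference was -0.48 on the log2 scale, a change of -28.5% in signal, against -0.0034 over all genes tested and -0.027 over those of like brightness. Single genes ran from -0.82 for TPX2 to -0.14 for CENPE, and all 46 lay below 0. Signals of 42 genes did not overlap between the 3 MCT1 shRNA and the 3 scramble arrays and were lower with MCT1 shRNA, as they were for 15.2% of all genes tested. In RNA from whole cultures, fewer cells in mitosis and less RNA of a gene per cell cannot be told apart.

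Averaged over the 46 genes, the level on an array lay -0.30 ± 0.0079 log2 units from the mean of all 24 arrays with MCT1 shRNA and 0.17 ± 0.021 with scramble shRNA (SD, n = 3 each). The 3 MCT1 shRNA arrays were the lowest of the 24 and lay within -0.31 to -0.29. The scramble arrays lay between 0.15 and 0.19, a range that the HS578T DMSO arrays, at 0.13 to 0.17, overlapped. Without scramble array 3, 35 genes fell, where 6.12% of all genes were called lower, and the median was -0.46; all 46 lay below 0, and for 45 the arrays did not overlap, as for 21.6% of all genes. TPX2 then stood at -0.66 ± 0.066 and NEK2 was lowest, at -0.75 ± 0.084. The 9 calls lost were CDK1, MAD2L1, CDC20, UBE2C, CENPF, KIF14, NUSAP1, ASPM and MKI67, while 3 genes not called with all arrays fell, CENPA at -0.50 ± 0.13, CENPE at -0.31 ± 0.098 and KIF23 at -0.41 ± 0.12. With the 6 shRNA arrays fitted alone, 30 genes fell, and 2.93% of all genes.

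**Figure D1:**
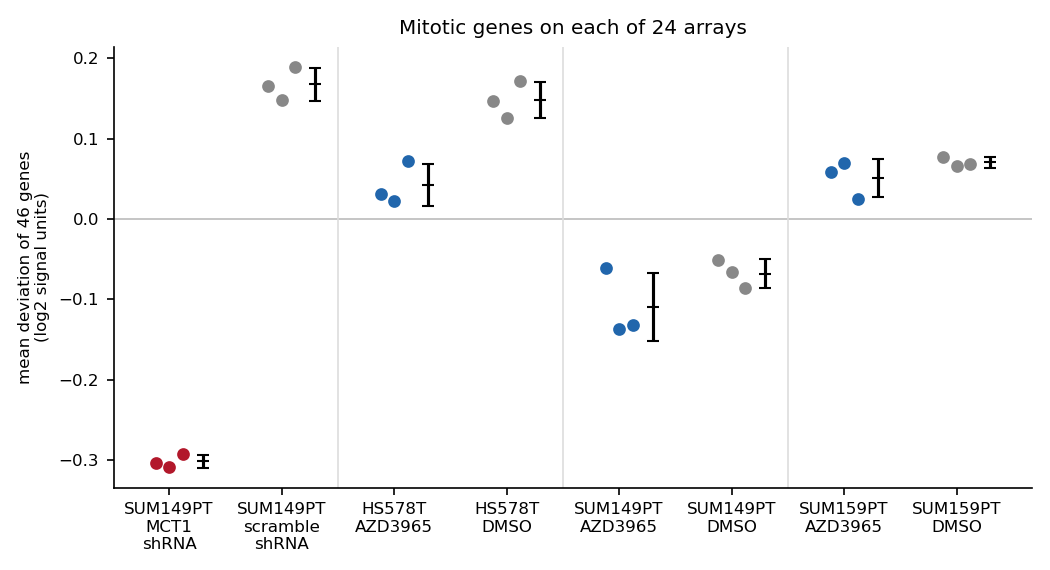
Mean deviation of the 46 mitotic genes on each array from their own mean over 24 arrays (log2 units, vertical axis), by group on the horizontal axis. Points are arrays and bars are means of 3 arrays; the MCT1 shRNA arrays sit near -0.30, below every other array, and the scramble arrays between 0.15 and 0.19.

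The promoters of these genes are shown because many hold the CHR element and CCAAT boxes named above. Windows of 300 bases, 250 before and 50 after the start of a RefSeq transcript (GRCh38.p14), were found for 39 of the 46 genes. Where a gene had several starts, the first listed was used. Of these 39, 74.4% held a CHR match (TTTGAA or TTCGAA on either strand), against 16.6% of 27305 windows in all. With any listed start the CHR shares were 79.5% and 19.5%. The windows in all are not limited to the genes tested. A CCAAT box on either strand stood in 74.4%, against 35.7% of all windows, and both motifs in 59%, against 6.58%. Within 100 bases before to 30 after the start, 59% held a CHR match, against 6.48% of all windows. An E2F core, searched as TTCCCGC, then as TTGGCGC, then as TTCGCGC and lastly as TTGCCGC on either strand, was found in 35.9%, against 13.1% of all windows. A CHR and a CCAAT match overlapped in 2 genes. These matches describe letters and are not evidence of binding.

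The stretches below cover 100 bases before to 30 after the start, 5′ to 3′ on the gene's strand, with CHR and CCAAT matches in capitals on either strand (TTCAAA and ATTGG are the reverse complements). They belong to NUF2 (chr1:163321854-163321983, plus strand), CCNB2 (chr15:59105046-59105175, plus strand), DLGAP5 (chr14:55191556-55191685, minus strand), BUB1 (chr2:110678034-110678163, minus strand) and KIF11 (chr10:92593030-92593159, plus strand), genes that fell with MCT1 shRNA and have a CHR match within 50 bases of the start. KIF20A (chr5:138179012-138179141, plus strand) fell without a CHR match, and PLK1 (chr16:23678789-23678918, plus strand) has one and was not called.

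NUF2: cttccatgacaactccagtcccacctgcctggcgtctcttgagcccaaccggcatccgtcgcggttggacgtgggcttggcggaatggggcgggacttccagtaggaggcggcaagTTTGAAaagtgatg
CCNB2: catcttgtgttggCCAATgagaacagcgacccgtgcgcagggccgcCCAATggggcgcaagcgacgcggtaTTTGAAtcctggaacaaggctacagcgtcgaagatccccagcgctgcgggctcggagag
DLGAP5: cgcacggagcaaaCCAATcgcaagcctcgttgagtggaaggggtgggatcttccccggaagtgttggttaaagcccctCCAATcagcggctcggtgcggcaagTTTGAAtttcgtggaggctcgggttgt
BUB1: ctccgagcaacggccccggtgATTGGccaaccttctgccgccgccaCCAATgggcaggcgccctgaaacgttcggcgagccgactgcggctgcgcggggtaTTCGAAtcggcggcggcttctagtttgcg
KIF11: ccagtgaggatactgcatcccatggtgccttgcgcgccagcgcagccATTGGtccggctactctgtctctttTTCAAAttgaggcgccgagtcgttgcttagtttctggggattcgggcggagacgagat
KIF20A: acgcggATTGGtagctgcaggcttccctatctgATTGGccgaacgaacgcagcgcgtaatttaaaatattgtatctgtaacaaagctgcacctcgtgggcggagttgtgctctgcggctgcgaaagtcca
PLK1: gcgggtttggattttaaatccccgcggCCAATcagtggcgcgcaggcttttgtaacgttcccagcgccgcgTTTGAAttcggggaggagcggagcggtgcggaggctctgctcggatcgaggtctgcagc

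In CCNB2 the CHR stands downstream of a pair of CCAAT boxes, and DLGAP5 and BUB1 have the same order, whereas NUF2 has a CHR and no CCAAT box in this stretch. KIF20A has a pair of CCAAT boxes in the reverse orientation and no CHR of these letters. Among genes with a window, 26 of the 34 that fell with MCT1 shRNA and 3 of the 5 not called held a CHR in the 300 bases. This split rests on the calls with all arrays.

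In the cyclin-CDK1 switch 5 of 6 genes fell. CCNB2 encodes a B-type cyclin that activates CDK1. CCNB2 had signals of 2402, 2471 and 2512 on the MCT1 shRNA arrays, against 3909, 3773 and 4122 on the scramble arrays. Its 3 MCT1 shRNA signals lay close together and all under the lowest scramble signal, a difference of -0.67 ± 0.062 (log2 ± SE; limma adjusted p = 8.33e-08). CCNA2, the cyclin of S phase and early mitosis, fell by 0.51 on the log2 scale, CCNB1 by 0.37, CDK1 itself by 0.30 and CDC25C, a phosphatase that removes inhibitory phosphate from CDK1, by 0.49. CDC25B, a phosphatase of the same family, was not called at -0.24 ± 0.12: its scramble signals were 2833, 2688 and 4426, of which array 3 lay apart, and without that array the difference was -0.012 ± 0.086.

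Of the mitotic kinases 4 of 5 fell. NEK2, which parts the duplicated centrosomes, had the lowest p of this role. NEK2 had signals of 2645, 2459 and 2571 on the MCT1 shRNA arrays, against 4355, 4275 and 4251 on the scramble arrays. The groups did not overlap and differed by -0.74 ± 0.077 (adjusted p = 3.37e-07). AURKB, the kinase of the chromosomal passenger complex, fell by 0.60 on the log2 scale, PLK4, which starts centriole duplication, by 0.47, and AURKA, the kinase of the spindle poles, by 0.28. PLK1, which matures centrosomes and promotes mitotic entry, was not called at -0.20 ± 0.12, nor without scramble array 3, at -0.34 ± 0.12.

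All 4 spindle checkpoint genes fell, within a narrow range of -0.56 to -0.48. The checkpoint holds anaphase back until every kinetochore is attached. BUB1 had signals of 1869, 1822 and 1849.5 on the MCT1 shRNA arrays, against 2771, 2814 and 2594 on the scramble arrays, with no overlap and a difference of -0.56 ± 0.063 (adjusted p = 1.52e-06). BUB1 is the kinase that recruits other checkpoint proteins to kinetochores. TTK, the kinase that starts the checkpoint signal, fell by 0.49 on the log2 scale, BUB1B, a subunit of the inhibitor that binds the anaphase-promoting complex, by 0.48, and MAD2L1, another subunit of that inhibitor, by 0.56.

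The activator CDC20 and the ubiquitin-conjugating enzyme UBE2C of the anaphase-promoting complex fell by 0.33 and 0.27 on the log2 scale. Securin, encoded by PTTG1, blocks separase until anaphase. PTTG1 had signals of 10689, 10674 and 11831 on the MCT1 shRNA arrays, against 15137, 13259 and 16641 on the scramble arrays. The highest MCT1 shRNA signal of PTTG1 lay under the lowest scramble signal, and the difference was -0.44 ± 0.089 (adjusted p = 0.00147).

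At the kinetochore and centromere 4 of 6 genes fell. NUF2, NDC80 and SPC25 are subunits of the NDC80 complex, which holds the microtubule end. NUF2 had signals of 2049.7, 1890.4 and 1918 on the MCT1 shRNA arrays, against 3259.7, 3329 and 3627 on the scramble arrays, which gave the smallest p of the 46 genes. NUF2 signal with MCT1 shRNA was thus lower on every array, by -0.80 ± 0.073 on the log2 scale (adjusted p = 7.64e-08). SPC25 fell by 0.57, NDC80 by 0.49 and CENPF, a large protein of the outer kinetochore, by 0.37 on the log2 scale. CENPA, the histone variant that marks centromeres, was not called at -0.23 ± 0.16, nor was the kinetochore motor CENPE at -0.14 ± 0.11.

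Of the 8 kinesin motors 7 fell. KIF20A carries the chromosomal passenger complex to the midzone in anaphase. KIF20A had signals of 3331, 3173 and 3170.2 on the MCT1 shRNA arrays, against 5692, 5154 and 4995 on the scramble arrays, a difference of -0.71 ± 0.072 (adjusted p = 2.92e-07) without overlap. KIF11, which slides antiparallel microtubules to part the poles, fell by 0.66 on the log2 scale, and KIF15, which can stand in for it, by 0.48. The chromosome-bound motor KIF4A fell by 0.57, KIF14, which acts in cytokinesis, by 0.56, KIF18A, which damps chromosome movement, by 0.49, and the microtubule depolymerase KIF2C by 0.28. KIF23, the motor of centralspindlin, was not called at -0.28 ± 0.12: its MCT1 shRNA signals of 1509, 1526 and 1520.2 lay under scramble signals of 2045, 1989 and 1563, of which array 3 was the lowest.

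All 5 spindle assembly genes fell with all arrays. Without scramble array 3, NUSAP1, at -0.22 ± 0.074, and ASPM, at -0.27 ± 0.093, were not called. DLGAP5 had signals of 4574, 4689 and 4969 on the MCT1 shRNA arrays, against 7077, 7340.1 and 6707 on the scramble arrays. DLGAP5 stabilises the microtubule bundles that reach kinetochores, and its groups were apart by -0.57 ± 0.062 (adjusted p = 9.21e-07). TPX2, which activates AURKA on the spindle, fell by 0.82, HMMR, a microtubule-bound hyaluronan receptor, by 0.61, the spindle pole protein ASPM by 0.33 and the microtubule-bundling NUSAP1 by 0.31 on the log2 scale. Both partners of AURKB in the chromosomal passenger complex that are on this list, BIRC5 and CDCA8, fell as well. BIRC5, which encodes survivin, had signals of 4183, 3842 and 4257 on the MCT1 shRNA arrays, against 6014, 5120.3 and 7538 on the scramble arrays. Its groups did not overlap and scramble array 3 was the highest, with a difference of -0.59 ± 0.091 (adjusted p = 8.15e-05), and of -0.44 ± 0.071 (adjusted p = 1.93e-04) without that array. CDCA8, which encodes borealin, fell by 0.42 on the log2 scale.

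The 4 cytokinesis genes fell. ANLN encodes anillin, a scaffold of the contractile ring. ANLN had signals of 3889, 3749.7 and 3741 on the MCT1 shRNA arrays, against 5403, 6241 and 6005 on the scramble arrays, a difference of -0.63 ± 0.11 (adjusted p = 2.91e-04). All 3 MCT1 shRNA signals of ANLN were under the lowest scramble signal. ECT2, the exchange factor that activates RhoA at the equator, fell by 0.49, its activator RACGAP1 by 0.39 and the midzone bundler PRC1 by 0.31 on the log2 scale.

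The 3 genes of transcription and chromosome structure fell too with all arrays, though MKI67 was not called without scramble array 3, at -0.39 ± 0.13. FOXM1 had signals of 1961, 1647 and 2017 on the MCT1 shRNA arrays, against 2984, 2512 and 3407 on the scramble arrays. FOXM1, the transcription factor that drives many genes of this list, was thus lower, at -0.65 ± 0.10 (adjusted p = 1.05e-04) with no overlap. TOP2A, the topoisomerase that untangles sister chromatids, and MKI67, which encodes the proliferation antigen Ki-67, each fell by 0.41 on the log2 scale.

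**Figure D2:**
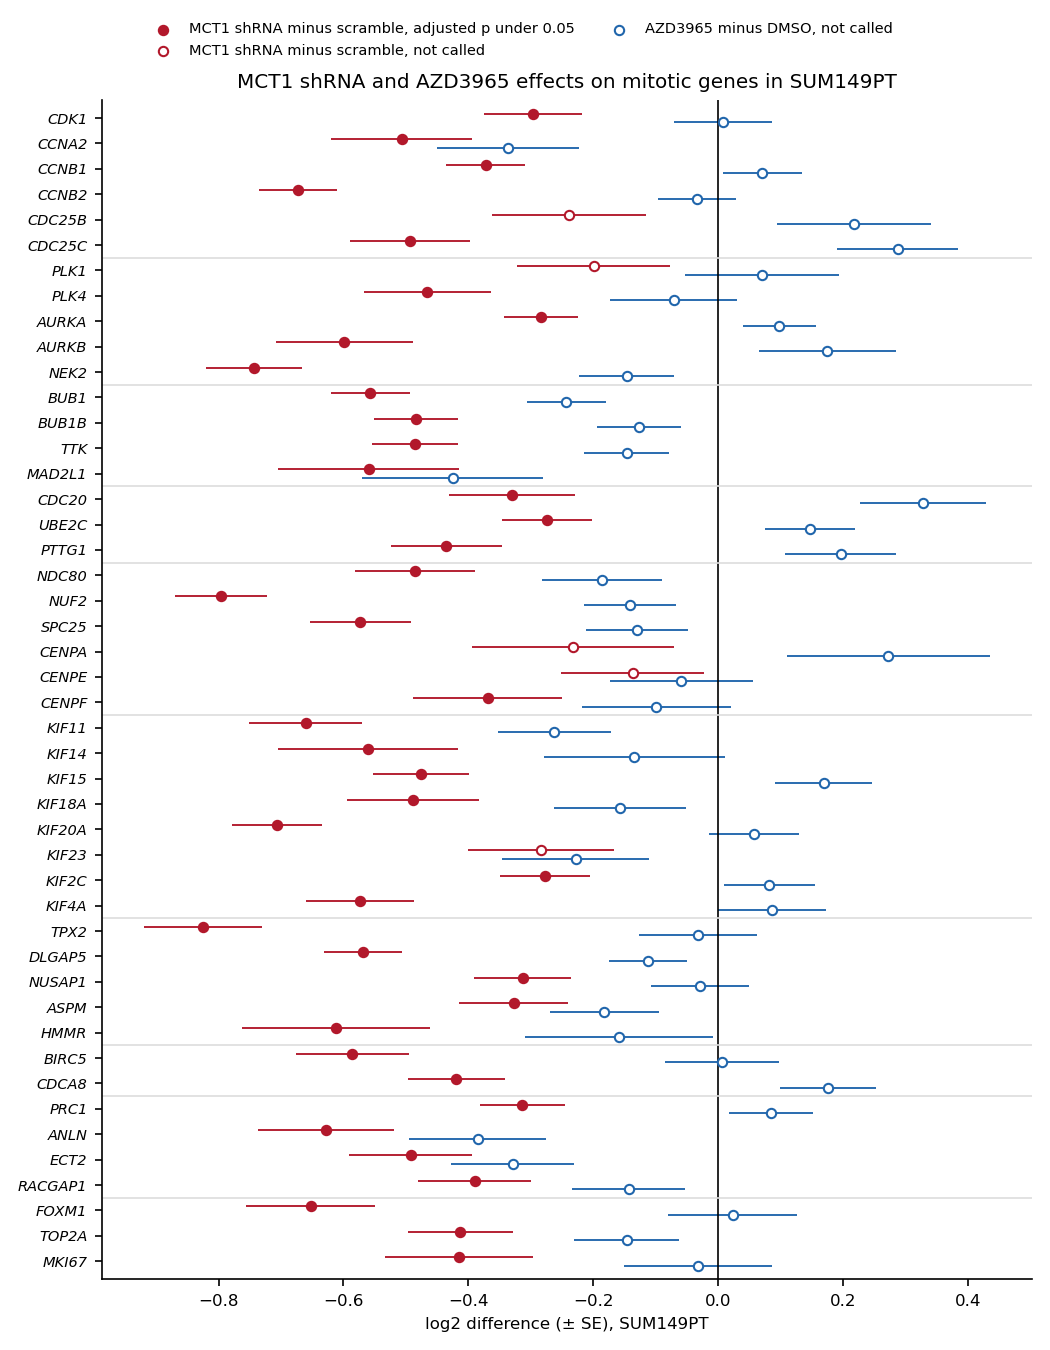
Log2 difference (horizontal axis, bars are standard errors) of each of the 46 mitotic genes (rows, parted by role) in SUM149PT for MCT1 shRNA minus scramble and AZD3965 minus DMSO; filled marks are genes called at an adjusted p under 0.05. The MCT1 shRNA values run from -0.82 to -0.14 with 41 genes called, and the AZD3965 values from -0.43 to 0.33 with 0 called.

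**Figure D3:**
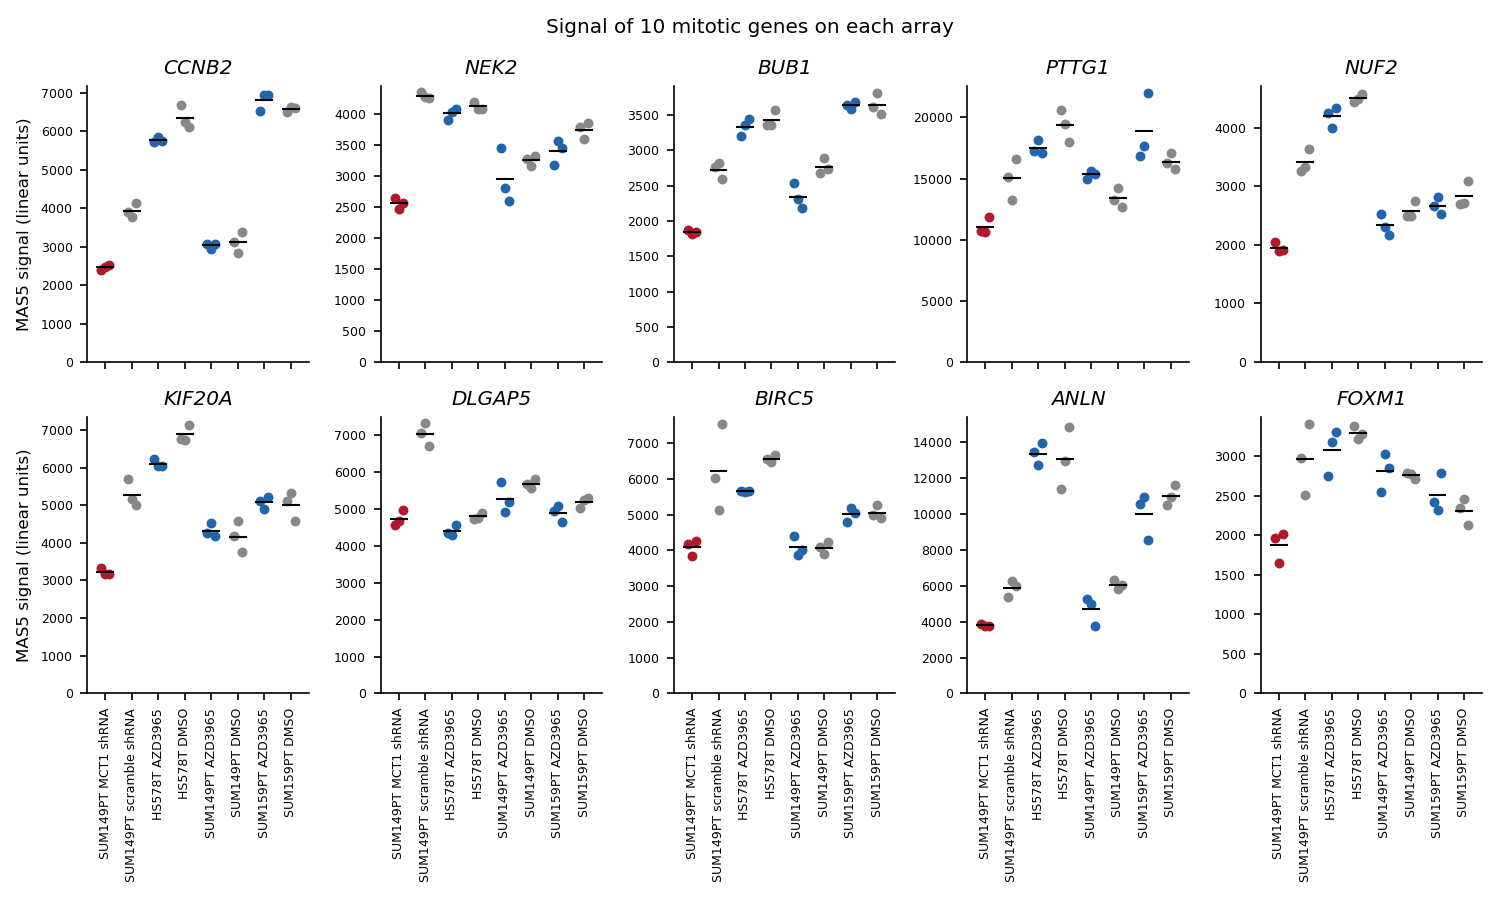
Signal (vertical axes, linear MAS5 units) on each array of the gene of smallest p in each of the 10 roles in the shRNA comparison, by group on the horizontal axis; points are arrays and bars are means of 3 arrays. For every gene shown the 3 MCT1 shRNA arrays lie below the 3 scramble arrays.

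Of the 46 genes, 23 were measured by further probe sets, 41 in all, of which 36 passed the filter. In the shRNA comparison 28 of the 36 shared the sign of the gene's main probe set and 8 had the opposite sign. When all 32805 probe sets past the filter were tested together, 8 of the 36 were called lower and 0 higher, against 4.9% of all probe sets called lower. In that fit 40 of the 46 main probe sets were called lower. Without scramble array 3, 35 of the 36 shared the sign of the main probe set and 15 were called lower, with 34 main ones, against 3.87% of all probe sets. Of the 16 further probe sets as bright as the dimmest main one, 14 lay below 0, 6 were called lower and the median was -0.26.

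MAD2L1 had a pair of bright probe sets that differed in size. Its main one gave signals of 5466, 5253 and 5085 with MCT1 shRNA, against 6939, 7395 and 9133 with scramble shRNA, while the second gave 4908, 5450.4 and 4957, against 6435, 6424 and 3779.8. Scramble array 3 was the highest scramble array in the main probe set and the lowest in the second, and the second gave a difference of -0.079 ± 0.13. The third MAD2L1 probe set gave -0.61 ± 0.12. For HMMR a second probe set gave -0.21 ± 0.12 and for ANLN -0.14 ± 0.15, both also with scramble array 3 as the lowest scramble array. Without that array the second probe sets gave -0.33 ± 0.073 for MAD2L1, -0.46 ± 0.062 for HMMR and -0.44 ± 0.092 for ANLN, all called. The further probe sets of BUB1 were dim, and averaging all probe sets of a gene turned its difference to 0.12 (adjusted p = 0.632) and left 29 genes called, where 6.07% of all genes were called lower.

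**Figure D4:**
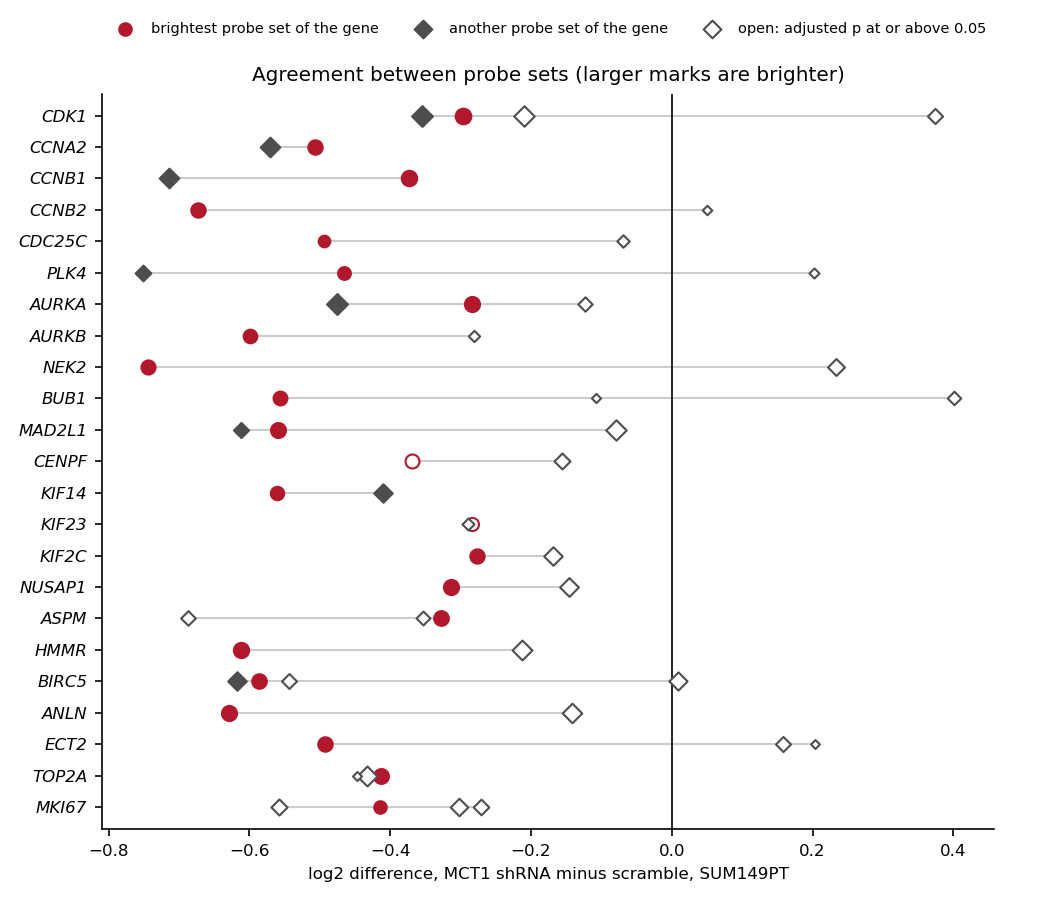
Log2 difference for MCT1 shRNA minus scramble (horizontal axis) of every probe set past the filter for the 23 genes that have several (rows); circles are the main probe sets, diamonds the further ones, filled marks are called at an adjusted p under 0.05 and larger marks are brighter. Of 36 diamonds 28 lie on the same side of 0 as the main probe set and 8 are filled.

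Genes of neighbouring functions were read beside the 46, and their counts stand against the 7.64% of all genes called lower. These lists were drawn up by role, but with earlier results of these data known, so their counts are descriptions. Of 62 other mitotic genes tested, 37 fell and 0 rose, with a median of -0.38. They included CEP55, which recruits the abscission machinery (-0.64 ± 0.059), GTSE1, a microtubule-bound protein of G2 and M (-0.64 ± 0.063), the centromere protein CENPW (-0.69 ± 0.086) and HJURP, the chaperone that loads CENPA (-0.49 ± 0.071). Of 17 condensin and cohesin genes 6 fell, with a median of -0.19, among them the condensin subunits NCAPD2 (-0.71 ± 0.11), NCAPH (-0.52 ± 0.084), NCAPG (-0.28 ± 0.062) and NCAPH2 (-0.71 ± 0.16). Of 30 DNA replication genes 14 fell, with a median of -0.24, among them POLE2, a subunit of DNA polymerase epsilon (-0.52 ± 0.084), the helicase subunit MCM3 (-0.39 ± 0.072), and the clamp loader subunits RFC2 (-0.36 ± 0.073) and RFC3 (-0.28 ± 0.060).

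Of the remaining lists, those of the anaphase-promoting complex, centrioles and tubulins had at most 2 genes lower each. The share called lower was 7.64% of all genes and 12.1% of genes as bright as the dimmest mitotic gene. So few calls are not read as a result about these lists. Of 14 subunits of the anaphase-promoting complex 2 fell, ANAPC15 (-0.33 ± 0.10) and ANAPC11 (-0.33 ± 0.10), and the median was 0.011. Of 9 centriole duplication genes 0 were called, with a median of -0.054, and of 12 tubulins only TUBG1, the gamma-tubulin of centrosomes, fell (-0.28 ± 0.080). Of 23 regulators of the MuvB, E2F and NF-Y families 4 fell, with a median of -0.10: MYBL1 (-0.72 ± 0.10), MYBL2, which encodes B-MYB (-0.50 ± 0.12), TFDP2 (-0.31 ± 0.093) and NFYA (-0.42 ± 0.13). Of 15 D and E cyclins, their kinases and CDK inhibitors 5 fell and 2 rose. CDK2 (-0.64 ± 0.069), CDK6 (-0.54 ± 0.090) and CDKN3 (-0.38 ± 0.069) fell, while CCNE1, which encodes cyclin E1, rose (0.55 ± 0.10). The other gene that rose, named after its value was seen, was CDKN1B, which encodes the CDK inhibitor p27 (0.70 ± 0.13).

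Markers of other cell types moved in part with the same comparison. The summed signal of 5 epithelial markers was 57164 to 61923 on the MCT1 shRNA arrays, against 43756 to 48518 on the scramble arrays. KRT19 (1.09 ± 0.10) and KRT8 (0.64 ± 0.17) rose. The mesenchymal marker SPARC was also called higher (1.22 ± 0.23), but it was dim in these cells. Its mean signal was 45 with MCT1 shRNA and 11.5 with scramble shRNA, against 19019 in HS578T under DMSO. The SPARC call is therefore not read as a mesenchymal gain. The summed signal of the 5 mesenchymal markers, 18433 to 23699 with MCT1 shRNA, overlapped the 20623 to 21538 with scramble shRNA. Summed leukocyte markers stood at 196 to 224 with MCT1 shRNA, against 158 to 232 with scramble shRNA, and those of endothelium and adipocytes were under 300 on these arrays; 2 of 5 basal markers were in the table. The part of these shifts in the lower mitotic RNA was not tested.

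AZD3965 for 24 hours gave no called change in any of the 46 genes in any line. In HS578T 0 were called, where 0.304% of all genes tested were called in either direction, and 9 had an unadjusted p under 0.05, all lower. In SUM149PT 0 were called, against 0.0283% of all genes, with 13 at an unadjusted p under 0.05, 8 of them lower and 5 higher. In SUM159PT 0 were called, against 0% of all genes, with 7 at an unadjusted p under 0.05, 4 lower and 3 higher. The share of all genes at an unadjusted p under 0.05 was 8.28% in HS578T, 16.5% in SUM149PT and 6.75% in SUM159PT. Standard errors were at most 0.16 on the log2 scale, and a miss of the threshold does not show that a gene did not change.

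In HS578T the median of the 46 genes was -0.11, against -0.019 over all genes tested, and it became 0.052, against 0.14, when arrays were centred on their median. Both scalings thus put the genes below all genes, and only their sign against 0 turned. Signals of 19 genes were lower without overlap, as they were for 10.9% of all genes. The motor KIF4A had signals of 2497, 2448 and 2619 with AZD3965, against 3229, 2716 and 2974 with DMSO, -0.23 ± 0.086 (adjusted p = 0.398). KIF15 had 1009.9, 1123 and 1143 with AZD3965, against 1391, 1229.6 and 1174 with DMSO, -0.21 ± 0.078 (adjusted p = 0.402). CDCA8 had 2754, 2886 and 2957 with AZD3965, against 3445, 3230.0 and 3209.9 with DMSO, -0.20 ± 0.077 (adjusted p = 0.428). In each of these 3 genes every AZD3965 array lay below every DMSO array, yet none passed the adjustment over all genes. With arrays weighted by quality, 1 gene, AURKA, was called, at -0.16, where 2.74% of all genes were.

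In SUM149PT the median was -0.047, against 0.041 over all genes tested, and -0.11, against -0.018, with centred arrays. Leaving out DMSO array 3 moved it to -0.095 and leaving out DMSO array 1 to -0.014. At an unadjusted p under 0.05, BUB1, ANLN, ECT2, CCNA2, MAD2L1, KIF11, TTK and ASPM lay below DMSO and CDC20, CDC25C, CDCA8, PTTG1 and KIF15 above it. BUB1 had signals of 2530.5, 2313 and 2177 with AZD3965, against 2675, 2895 and 2737 with DMSO, -0.24 ± 0.063 (adjusted p = 0.140). ANLN had 5291, 4998 and 3772 with AZD3965, against 6317, 5838 and 6043 with DMSO, -0.39 ± 0.11 (adjusted p = 0.143). ECT2 had 3241, 2669 and 2468 with AZD3965, against 3292, 3530.2 and 3652 with DMSO, -0.33 ± 0.10 (adjusted p = 0.150). In all 3 genes every AZD3965 array lay under the lowest DMSO array, and AZD3965 array 1 lay nearest to DMSO. Without that array 7 genes fell, CCNA2, NEK2, BUB1, MAD2L1, KIF11, ANLN and ECT2, and CDC20 rose, while 4.58% of all genes were called. CCNA2 then stood at -0.53 ± 0.089 and CDC20 at 0.43 ± 0.10. With array weights 3 genes fell (CCNA2, BUB1 and ECT2), CDC20 rose, and 1.33% of all genes were called.

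In SUM159PT the median was -0.0051, against 0.0035 over all genes tested, and 0.082, against 0.091, with arrays centred on their median. KIF15 had signals of 1317, 1269.5 and 1267 with AZD3965, against 1096, 1094 and 1082 with DMSO, 0.23 ± 0.078 (adjusted p = 0.728). KIF11 had 3214, 3027 and 2711 with AZD3965, against 3364, 3578 and 3536 with DMSO, -0.23 ± 0.090 (adjusted p = 0.728). CDC20 had 8951, 8399 and 11332 with AZD3965, against 7732, 8561 and 7545 with DMSO, 0.26 ± 0.10 (adjusted p = 0.728). KIF15 lay above DMSO and KIF11 below it on every AZD3965 array, while the CDC20 signals overlapped.

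Averaged over the 3 lines 0 genes were called, against 0.0283% of all genes, with 15 lower and 1 higher at an unadjusted p under 0.05, where 14.5% of all genes passed that threshold in either direction. The median was -0.067, against -0.00054 over all genes tested, and -0.0049, against 0.062, with centred arrays. KIF11 averaged -0.19 ± 0.052 (adjusted p = 0.187), with -0.071 in HS578T, -0.26 in SUM149PT and -0.23 in SUM159PT. KIF23 averaged -0.23 ± 0.068 (adjusted p = 0.191) and NDC80 -0.19 ± 0.056 (adjusted p = 0.191). KIF23 and NDC80 were below 0 by a like amount in each line, -0.22, -0.23 and -0.25 for KIF23 in HS578T, SUM149PT and SUM159PT. Without SUM149PT AZD3965 array 1, CCNA2, KIF11 and KIF23 fell on average, where 0.467% of all genes were called, and the same 3 genes fell with array weights, where 1.04% were.

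The AZD3965 effect did not differ between lines at an adjusted p under 0.05 for any of the 46 genes (F test in limma, 0.12% of all genes called), and 9 had an unadjusted p under 0.05, where 9.99% of all genes did. KIF15 came nearest, at -0.21 in HS578T, 0.17 in SUM149PT and 0.23 in SUM159PT (adjusted p = 0.166). CDC20 stood at -0.18, 0.33 and 0.26 in the same lines (adjusted p = 0.280), and CDC25C at -0.20, 0.29 and 0.055 (adjusted p = 0.340). In all 3 genes HS578T was below 0 and both SUM lines above it. With array weights KIF15 and CDC20 were called, as were 1.05% of all genes. Across the 46 genes the SUM149PT and SUM159PT differences ran alike (Pearson r = 0.791, Spearman rho = 0.785, against 0.173 and 0.274 over 14141 genes). For their 36 further probe sets r was 0.438 and rho 0.494. The HS578T and SUM149PT differences gave r = -0.379 over the 46 genes. These are descriptions over genes that share arrays and are no independent points. By sign, 15 genes lay below 0 in all 3 lines, 1 above 0, and 30 were mixed.

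Set against each other in SUM149PT, the shRNA difference was lower than the AZD3965 difference for all 46 genes, and 24 passed the test with 0 higher. Of all genes tested 4.94% were called lower and 4.58% higher, and 8.19% of those of like brightness were called lower. The median was -0.40, against -0.042 over all genes tested. Without scramble array 3, 26 passed, the same 24 with CENPA and KIF11, against 4.24% of all genes called lower. The comparison sets 5 days of selection after lentiviral infection beside 24 hours of a drug, so agent, time and procedure cannot be told apart.

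CCNB2 in SUM149PT had signals of 3069.8, 2946 and 3069.7 with AZD3965, against 3113, 2837 and 3379 with DMSO, beside the shRNA values above. Its AZD3965 arrays lay inside the range of the DMSO arrays, and the shRNA difference was lower than the AZD3965 difference by 0.64 ± 0.088 on the log2 scale (adjusted p = 6.28e-05). NEK2 had 3458, 2809 and 2596 with AZD3965, against 3277, 3156 and 3314 with DMSO, with AZD3965 array 1 the highest of the 6, and a difference of effects of -0.60 ± 0.11 (adjusted p = 0.00104). BUB1B had signals of 4901, 4609 and 5049 on the MCT1 shRNA arrays, against 6785, 7169 and 6437 on the scramble arrays. The BUB1B signals were 5689, 5086 and 4845 with AZD3965, against 5519, 5886 and 5617 with DMSO, which overlap, and the difference of effects was -0.36 ± 0.10 (adjusted p = 0.0192). PTTG1 ran the other way with the drug, at 14982, 15658 and 15405 with AZD3965, against 13287, 14258 and 12693 with DMSO, without overlap. Its difference of effects was -0.63 ± 0.13 (adjusted p = 0.00239). NUF2 had 2532, 2302 and 2169.5 with AZD3965, against 2486, 2489.6 and 2744 with DMSO, and a difference of effects of -0.66 ± 0.10 (adjusted p = 2.67e-04).

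KIF20A had 4267, 4527 and 4172 with AZD3965, against 4169, 4573 and 3753 with DMSO, which overlap, and gave -0.76 ± 0.10 (adjusted p = 4.34e-05). TPX2 had signals of 2396, 2288 and 2517 on the MCT1 shRNA arrays, against 3981, 3602 and 5393 on the scramble arrays. TPX2 had 3654, 3481 and 3786 with AZD3965, against 3630.0, 3601 and 3943 with DMSO, and the largest difference of effects of the 46 genes, -0.79 ± 0.13 (adjusted p = 5.04e-04), which was -0.62 ± 0.088 without scramble array 3, where AURKB, at -0.81, was the largest. Scramble array 3 was the highest TPX2 array. CDCA8 had signals of 1889.8, 1767 and 1990.3 on the MCT1 shRNA arrays, against 2589, 2578 and 2397 on the scramble arrays. CDCA8 had 2090.5, 2249.6 and 2292 with AZD3965, against 1747, 2102 and 2034 with DMSO, again with overlap, and -0.59 ± 0.11 (adjusted p = 0.00114). PRC1 had signals of 8767, 8516 and 9547 on the MCT1 shRNA arrays, against 11601, 11756 and 10042 on the scramble arrays. PRC1 had 10419, 10339 and 10498 with AZD3965, against 9341, 10140.0 and 10026 with DMSO, higher with the drug without overlap, and -0.40 ± 0.10 (adjusted p = 0.0101). FOXM1 had 2548, 3031 and 2857 with AZD3965, against 2787, 2775 and 2718 with DMSO, and -0.68 ± 0.15 (adjusted p = 0.00468). By role, all 3 genes of the anaphase-promoting complex and securin group and both listed chromosomal passenger partners were called, and 1 of the 4 cytokinesis genes. Among genes whose AZD3965 value was itself low, ANLN was not called, at -0.24 ± 0.15 (adjusted p = 0.353).

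Levels in SUM149PT can be set side by side across both experiments, with no test since virus, selection and time differ. With scramble shRNA the median level difference from DMSO was 0.26 over the 46 genes, and 37 of them had the scramble mean above the DMSO mean. With MCT1 shRNA the median difference from DMSO was -0.23, and 37 had the MCT1 shRNA mean below the DMSO mean. Over all genes tested the same medians were -0.0063 and 0.0017. For 9 genes the MCT1 shRNA mean lay between the DMSO and scramble means. BIRC5 was among them by its main probe set, with SUM149PT signals of 4393, 3877 and 4019 with AZD3965, against 4104, 3898 and 4227 with DMSO. By that probe set its MCT1 shRNA arrays lay at the level of the drug experiment and its scramble arrays above it. A further BIRC5 probe set had 1005, 977 and 876 with MCT1 shRNA, below every DMSO and AZD3965 array of SUM149PT. Another had 953, 1169 and 1043, also below every such array, while the dimmest overlapped. The BIRC5 level against the drug experiment thus depends on the probe set.

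Under DMSO the 3 lines differed in their mitotic RNA in a gene-specific order. HS578T against SUM149PT gave 25 genes higher and 11 lower, where 30.4% and 33.8% of all genes were, with a median of 0.26, against -0.016 over all genes tested. HS578T against SUM159PT gave 19 higher and 11 lower, where 27.3% and 30.7% of all genes were, with a median of 0.13, against -0.031. SUM149PT against SUM159PT gave 10 higher and 23 lower, where 30% and 29.3% of all genes were, with a median of -0.23, against -0.017. With arrays centred on their median the splits were 18 higher and 14 lower, 12 and 12, and 6 and 19 in the same order, and the median of HS578T against SUM159PT was 0.034. Centring also moved the median of all genes, by -0.10, -0.091 and 0.013 in the same order, and no shares of all genes are given for it. Without SUM159PT DMSO array 3, SUM149PT against SUM159PT gave 6 higher, also with no share given. With all arrays and no centring, 64.2%, 58% and 59.4% of all genes were called in either direction. Among genes of like brightness 32% were higher and 43% lower, 28.3% and 42.7%, and 34.2% and 35.2%. The number of mitotic genes called is thus near the background.

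Of the 46 genes 15 were above both other lines in HS578T with both differences called, 5 in SUM149PT and 6 in SUM159PT, and for 20 no line was. The shares of all genes tested in these positions were 17.1%, 20.2% and 14%, and of genes of like brightness 17.6%, 23.8% and 18.7%, in the same order of lines. Below both other lines were 4 genes in HS578T, 18 in SUM149PT and 7 in SUM159PT, where 19.5%, 17.9% and 12.8% of all genes were, and 29%, 20.5% and 14.5% of genes of like brightness. No pair of lines was called apart for KIF14 and KIF18A. By their main probe sets, the 5 genes highest in SUM149PT were AURKA, AURKB, UBE2C, NUSAP1 and ASPM. Further probe sets of AURKB and ASPM went the other way. A second NUSAP1 probe set overlapped between SUM149PT (2244, 2118 and 1995) and HS578T (2627, 2066 and 1951). A dim AURKA probe set was higher in HS578T (331, 295 and 318) than in SUM149PT (288, 288 and 272). The 6 highest in SUM159PT by main probe set were CDK1, CCNA2, CCNB1, PLK1, SPC25 and CENPE. Bright further CDK1 probe sets overlapped between the lines, so the CDK1 and NUSAP1 orders depend on the probe set.

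By their main probe sets, all 6 genes of the cyclin-CDK1 switch were lower in SUM149PT than in SUM159PT. Of all genes 29.3% were, and 35.2% of those of like brightness. For CDK1, bright further probe sets overlapped between these lines. One had 5221, 5606 and 5881 in SUM149PT and 5557, 6136 and 5084 in SUM159PT. CCNB2 had DMSO signals of 6666, 6229 and 6106 in HS578T, 3113, 2837 and 3379 in SUM149PT and 6505, 6634 and 6605 in SUM159PT. SUM149PT alone was low, by -1.08 ± 0.062 against SUM159PT (adjusted p = 3.17e-13), and HS578T and SUM159PT were not called apart (-0.056 ± 0.062). CCNB1 had 8716, 8247 and 9416 in HS578T, 8979, 9344 and 9368 in SUM149PT and 14164, 14553 and 15184 in SUM159PT. Here SUM159PT alone was high, with HS578T lower by 0.74 ± 0.063 on the log2 scale (adjusted p = 5.10e-10) and HS578T and SUM149PT overlapping. The widest gap of this role was in CDC25C, at 1.36 ± 0.10 for HS578T against SUM149PT and 0.94 ± 0.10 for HS578T against SUM159PT.

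By their main probe sets, Aurora kinases were highest in SUM149PT. AURKA had DMSO signals of 6181, 6620.1 and 6523 in HS578T, 9434, 9728 and 9733 in SUM149PT and 5984, 5842 and 5583 in SUM159PT. HS578T was below SUM149PT by 0.58 ± 0.059 on the log2 scale (adjusted p = 5.81e-09), and SUM159PT was the lowest. AURKB had 2519, 2391 and 1897 in HS578T, 3742, 4092 and 3701 in SUM149PT and 1063, 851 and 1023 in SUM159PT, with no overlap between any pair of lines. The AURKB difference of SUM149PT against SUM159PT was the widest of the 46 genes in any pair, 1.96 ± 0.11 (adjusted p = 1.88e-13), and HS578T against SUM159PT gave 1.20 ± 0.11. A second, dim AURKB probe set went the other way between HS578T and SUM149PT, with 157, 97 and 92.7 in HS578T, 58.2, 76.9 and 77.4 in SUM149PT and 45.5, 50.2 and 48.3 in SUM159PT. It gave 0.57 ± 0.22 for HS578T against SUM149PT, where the main probe set gave -0.77 ± 0.11, so the order of these lines for AURKB depends on the probe set; of all probe sets 55.3% were called between these lines.

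Among checkpoint genes TTK had DMSO signals of 3694, 3781 and 4151 in HS578T, 2461, 2373 and 2516 in SUM149PT and 3277, 3168 and 3600.3 in SUM159PT, at 3 levels without overlap. HS578T against SUM149PT gave 0.66 ± 0.068 (adjusted p = 9.22e-09) and SUM149PT against SUM159PT -0.45 ± 0.068. BUB1B had 3988, 3844 and 4205 in HS578T, 5519, 5886 and 5617 in SUM149PT and 6203, 6096 and 6074 in SUM159PT, lowest in HS578T. Its difference was -0.61 ± 0.067 for HS578T against SUM159PT (adjusted p = 3.69e-08), while SUM149PT and SUM159PT were not called apart (-0.11 ± 0.067). UBE2C, the conjugating enzyme of the anaphase-promoting complex, had 6618, 6267 and 6115 in HS578T, 8475, 8757 and 8376 in SUM149PT and 4939, 4779 and 4504 in SUM159PT. SUM149PT was highest and SUM159PT lowest without overlap, at 0.85 ± 0.072 for SUM149PT against SUM159PT (adjusted p = 3.87e-10), and HS578T lay between, at -0.43 ± 0.072 against SUM149PT and 0.42 ± 0.072 against SUM159PT.

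At the kinetochore all 6 genes were higher in HS578T than in SUM149PT, where 30.4% of all genes and 32% of those of like brightness were. NUF2 had DMSO signals of 4430.2, 4488 and 4575 in HS578T, 2486, 2489.6 and 2744 in SUM149PT and 2692, 2705 and 3082 in SUM159PT. HS578T stood above both other lines, by 0.80 ± 0.073 against SUM149PT (adjusted p = 1.00e-09) and 0.67 ± 0.073 against SUM159PT, and SUM149PT and SUM159PT overlapped. CENPE had 1932, 1689.5 and 1558 in HS578T, 1473, 1339 and 1155 in SUM149PT and 2627, 2502 and 2628 in SUM159PT, highest in SUM159PT. SUM149PT was below SUM159PT by 0.97 ± 0.11 on the log2 scale (adjusted p = 9.87e-08). Of the kinesins 5 of 8 were higher in HS578T than in SUM149PT and 0 lower. KIF15 had 1391, 1229.6 and 1174 in HS578T, 732, 726 and 693 in SUM149PT and 1096, 1094 and 1082 in SUM159PT, lowest in SUM149PT, with 0.80 ± 0.078 for HS578T against SUM149PT (adjusted p = 2.67e-09) and -0.60 ± 0.078 for SUM149PT against SUM159PT. KIF2C had 5312, 4922 and 5605 in HS578T, 3696, 3941 and 3795 in SUM149PT and 3419, 3355 and 3239 in SUM159PT, highest in HS578T. It differed by 0.66 ± 0.072 between HS578T and SUM159PT (adjusted p = 3.40e-08).

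Spindle assembly genes did not share an order. TPX2 had DMSO signals of 5633, 5290.2 and 5645 in HS578T, 3630.0, 3601 and 3943 in SUM149PT and 4562, 4470.0 and 4785 in SUM159PT, highest in HS578T and lowest in SUM149PT. Its differences were 0.57 ± 0.094 for HS578T against SUM149PT (adjusted p = 1.22e-05) and -0.31 ± 0.094 for SUM149PT against SUM159PT. HMMR had 5687, 7640.0 and 7516 in HS578T, 10797, 11603 and 9604 in SUM149PT and 9464, 9906 and 9109 in SUM159PT, lowest in HS578T, where array 1 lay under the other 2. It gave -0.46 ± 0.15 for HS578T against SUM159PT (adjusted p = 0.0110). ASPM had 4521, 4762 and 5263 in HS578T, 7377, 5944 and 5753 in SUM149PT and 5539.9, 5238 and 5136 in SUM159PT, with SUM149PT array 1 apart from the other 2 of its group. Its main probe set gave -0.38 ± 0.087 for HS578T against SUM149PT and 0.25 ± 0.087 for SUM149PT against SUM159PT. One further ASPM probe set had 434, 420.0 and 403 in HS578T, 387, 115 and 149 in SUM149PT and 426, 362 and 339.9 in SUM159PT, and gave 1.08 ± 0.26 and -0.92 ± 0.26 for the same pairs. The other had 405, 454 and 437 in HS578T, 327, 80.8 and 110.1 in SUM149PT and 416, 258 and 320.1 in SUM159PT, and gave 1.47 ± 0.39 and -1.08 ± 0.39. Both further probe sets were called opposite to the main one in both pairs, where 55.3% and 50.3% of all probe sets were called, and in both SUM149PT array 1 stood well above arrays 2 and 3, so ASPM has no settled order here.

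Both listed chromosomal passenger partners were highest in HS578T. CDCA8 had DMSO signals of 3445, 3230.0 and 3209.9 in HS578T, 1747, 2102 and 2034 in SUM149PT and 2223, 2157 and 2115 in SUM159PT, with 0.75 ± 0.077 for HS578T against SUM149PT (adjusted p = 8.11e-09) and 0.60 ± 0.077 against SUM159PT. BIRC5 had 6562, 6477 and 6674 in HS578T, 4104, 3898 and 4227 in SUM149PT and 4991, 5264 and 4903 in SUM159PT. SUM149PT was lowest for BIRC5, at -0.31 ± 0.091 against SUM159PT (adjusted p = 0.00515). Among cytokinesis genes, ANLN had 11395, 12952 and 14838 in HS578T, 6317, 5838 and 6043 in SUM149PT and 10484, 10934 and 11618 in SUM159PT. SUM149PT stood far below both, with 1.10 ± 0.11 for HS578T against SUM149PT (adjusted p = 4.25e-09) and -0.86 ± 0.11 for SUM149PT against SUM159PT, while HS578T and SUM159PT were not called apart (0.24 ± 0.11). ECT2 had 5936, 6910.2 and 6450.1 in HS578T, 3292, 3530.2 and 3652 in SUM149PT and 4706, 4728 and 5374 in SUM159PT, in 3 levels without overlap. HS578T exceeded SUM159PT by 0.38 ± 0.10 (adjusted p = 0.00190).

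TOP2A had DMSO signals of 7174, 8125 and 9231 in HS578T, 5809, 5212 and 5338 in SUM149PT and 9219, 9394 and 8487 in SUM159PT, lowest in SUM149PT. HS578T was higher than SUM149PT by 0.58 ± 0.084 (adjusted p = 2.07e-06) and SUM149PT differed from SUM159PT by -0.73 ± 0.084. FOXM1 had 3380.2, 3219.6 and 3278 in HS578T, 2787, 2775 and 2718 in SUM149PT and 2342, 2466 and 2138 in SUM159PT, highest in HS578T and lowest in SUM159PT without overlap. It gave 0.51 ± 0.10 for HS578T against SUM159PT (adjusted p = 1.72e-04). The summed epithelial markers also separated the lines, at 5877 to 6015 in HS578T, 49814 to 52154 in SUM149PT and 9372 to 11368 in SUM159PT, and their part in these orders was not tested.

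**Figure D5:**
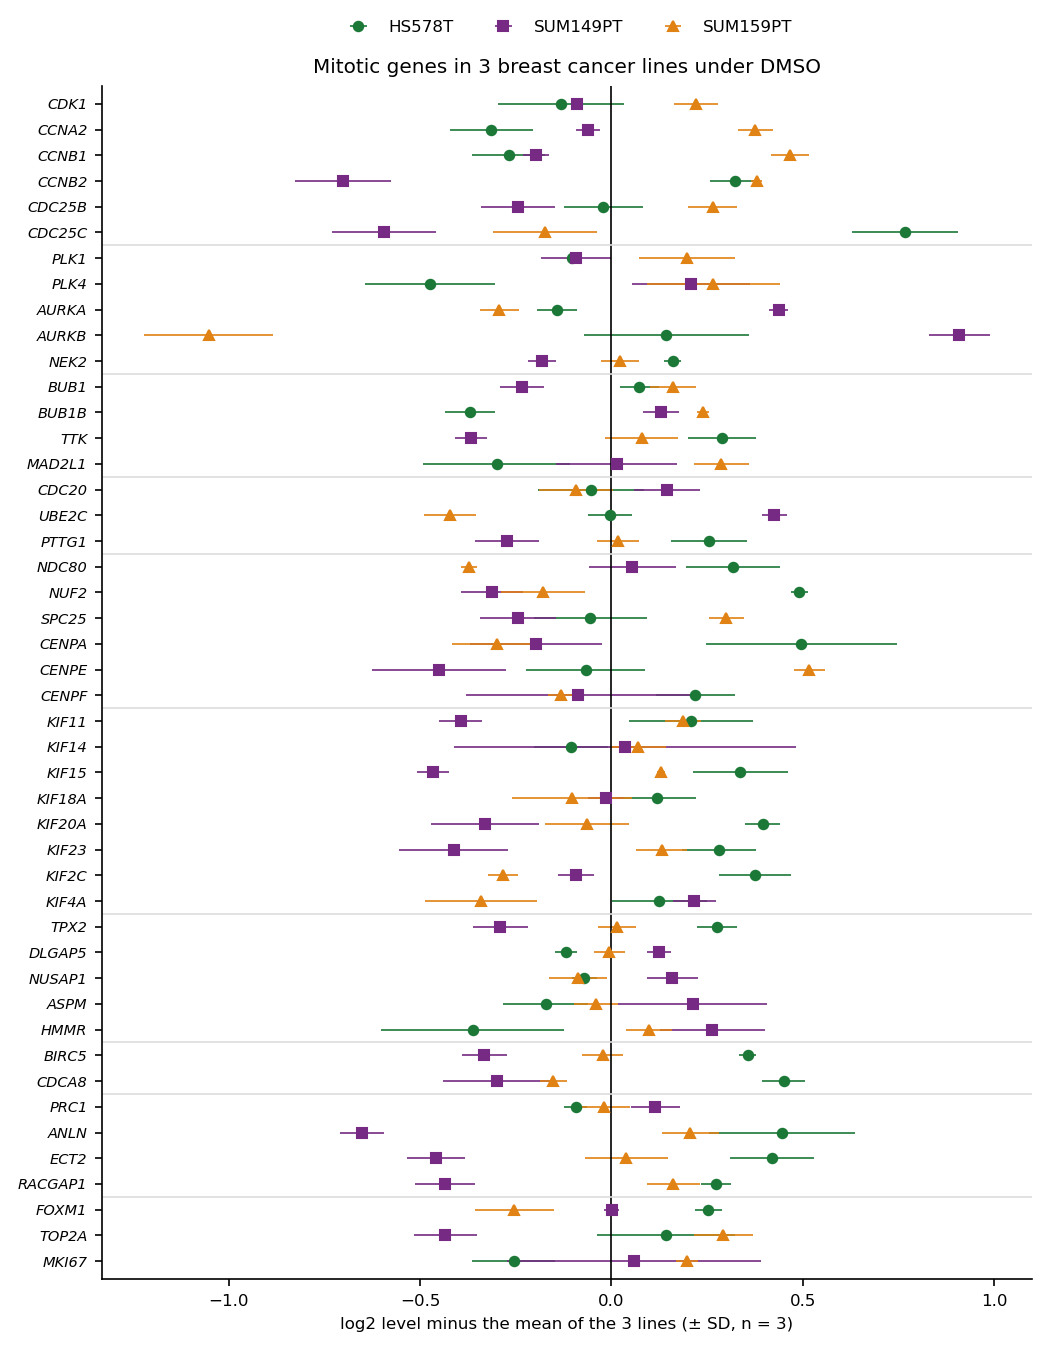
DMSO level of each of the 46 mitotic genes in HS578T, SUM149PT and SUM159PT as the log2 deviation from the mean of the 3 lines (horizontal axis), by gene and role; points are means of 3 arrays and bars standard deviations. HS578T is above both other lines for 15 genes, SUM149PT for 5 and SUM159PT for 6, both differences called. Further probe sets of AURKA, AURKB, ASPM, CDK1 and NUSAP1, not drawn, gave other orders or overlapped between lines.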

How the data were processed

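Each array had been processed by the authors to linear MAS5 intensity values, per the submitters' processing notes, of a version not given in the sources used here. A trimmed mean that leaves out the outer 2% of probe sets on both sides was 500.1 for each of the 24 deposited columns. They were therefore taken as scaled by the authors and not normalized again. Of 54675 probe sets the platform annotation gave 1 symbol to 41097, several to 1801 and none to 11777; 41043 symbols were updated through gene IDs. Each of 19775 genes kept its probe set of highest mean. Signals were analysed as log2(signal + 16), an offset that shrinks changes of dim genes, and genes whose mean reached the 40th percentile over probe sets (5.58) entered the tests.

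A linear model with a mean for each of the 8 groups used every array (limma 3.58.1, R 4.3.3; lmFit, contrasts.fit and eBayes with trend; 16 residual and 6.52 prior degrees of freedom). P-values were two-sided and adjusted by Benjamini-Hochberg over 14141 genes, and a gene was called at an adjusted value under 0.05. Errors of differences are standard errors. The members and the other gene lists were chosen with earlier results of these data known, so counts describe the lists and no list was tested. Signals array by array are given for the member of smallest p in each role and comparison and for members whose other probe sets were called in the opposite direction; where no member was called, for the 3 of smallest p. Of other lists up to 4 called members of smallest p are named. The fit was tested on simulated data. Promoter windows were read from a RefSeq table with Python 3.11.15 and pandas 2.3.3, and figures drawn with matplotlib 3.10.9.

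Same-numbered arrays of compared groups correlated at -0.13 to 0.23 in their deviations from the group means, and in no comparison did all 3 pairs exceed 0.1, so replicate numbers were not taken to pair arrays. The number of arrays limits the precision. Alternatives were quantile normalization, centring on array medians, offsets of 1 and 64, other filters, averaging the probe sets of a gene, array weights, a replicate block, a fit of only the arrays compared, and leaving out each array.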

Additional observations from a re-analysis of the deposited data

How the results depend on the processing

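The calls of the 41 genes lower with MCT1 shRNA were repeated under 16 settings each, 656 in all: 608 stayed past the threshold, 47 kept their direction and lost it, and 1 reversed, BUB1 at 0.12 (adjusted p = 0.632) with all probe sets of a gene averaged. Under all 16 settings 21 of the 41 were called. The replicate block left 40 lower genes (CENPF was lost) and changed the count of lower genes in no other treatment comparison; no call of the AZD3965 comparisons came with it. Counts of lower genes for MCT1 shRNA were otherwise 40 with quantile normalization and without the filter, and 45 with array weights. With only the arrays compared 30 were lower, beside 2.93% of all genes, and with the mean of probe sets 29, beside 6.07%. These settings use fewer arrays or other values. For the shRNA effect minus the AZD3965 effect, 16 genes were lower with centred arrays, against 24. In both comparisons no share of all genes is given for the replicate block, quantile normalization, no filter, array weights or centring. There the counts do not show whether all genes moved alike.

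With arrays centred on their median, the medians were -0.60 for MCT1 shRNA, 0.052 for AZD3965 in HS578T, -0.11 in SUM149PT, 0.082 in SUM159PT and -0.0049 on average, -0.45 for the difference of effects, 0.15 for HS578T minus SUM149PT and 0.034 for HS578T minus SUM159PT; higher genes were 12 for HS578T minus SUM159PT and 6 for SUM149PT minus SUM159PT. Centring moved the median of all genes by -0.11 for MCT1 shRNA, 0.16 for AZD3965 in HS578T and -0.10 for HS578T minus SUM149PT. Shares of all genes called with centred arrays are not given. Quantile normalization gave medians of 0.34 for HS578T minus SUM149PT and -0.28 for SUM149PT minus SUM159PT. The mean of probe sets gave -0.41 for MCT1 shRNA, -0.056 for AZD3965 in SUM159PT, 0.32 for HS578T minus SUM149PT, 0.17 for HS578T minus SUM159PT and -0.28 for SUM149PT minus SUM159PT. Array weights gave 1 lower gene for AZD3965 in HS578T, 3 lower and 1 higher in SUM149PT, 3 lower on average, and 2 called between lines.

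Leaving out 1 array at a time gave 35 to 42 lower genes and medians of -0.49 to -0.46 for MCT1 shRNA. The 35 came without scramble array 3, where 6.12% of all genes were lower, and for the 42 no such share is given. For AZD3965 in SUM149PT leaving out 1 array gave 0 to 7 lower and 0 to 1 higher genes, with medians of -0.095 to -0.014. On average over the lines it gave 0 to 3 lower, and the calls came without SUM149PT AZD3965 array 1. In SUM159PT the median ran from -0.020 to 0.0069. For SUM149PT minus SUM159PT there were 6 to 9 higher genes, with no share of all genes given, and medians of -0.28 to -0.20. Of the counts and medians recomputed, 486 stayed within set limits and 28 moved, and the cause was not tested. A count had to stay within a fixed ratio of the main count. A median had to shift by under 0.037, the spread of the member median over arrays within groups (1 SD), whether or not its sign turned. The number of arrays limits what small differences can be seen.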
